A study of Drosophila melanogaster with 4 samples.

Results

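Gpdh1 of Drosophila melanogaster (FBgn0001128) makes messenger RNAs with 3 alternative 3′ ends, and the measurements below follow those isoforms in Smn mutant larvae, in wild type larvae and across larval stages. The members were all exon bins of Gpdh1 in the deposited exon usage tables and every deposited splicing event that lies inside the gene on its own strand. There were 9 exon bins of 70463 in the mutant table, and 11 splicing events of 29171. Of those events, 8 were retained introns and 3 were alternative 5′ splice sites. The gene was chosen by its log2 fold of exon bin usage in mutants against wild type, which was measured in the same libraries as the splicing events. All values of that contrast, the splicing events included, are therefore a description with no test made on them.

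The study sequenced polyadenylated RNA of whole larvae, with 2 libraries of Smn mutants (strain SmnX7/D) and 2 of wild type Oregon R. All larvae were taken at 74 ± 2 h after egg laying and kept at 24 ± 1 °C. Smn encodes a protein needed to assemble the small nuclear ribonucleoproteins of the spliceosome. Mutants and wild type are different strains, so the Smn alleles and the strain background cannot be told apart. The authors also compared published libraries of the third larval instar at puff stage 1-2 (3 libraries) with those of the second instar (2) and of the third instar at 12 h (2).

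Gpdh1 is the cytosolic NAD-dependent glycerol-3-phosphate dehydrogenase. It reduces dihydroxyacetone phosphate to glycerol 3-phosphate, which feeds the mitochondrial glycerol phosphate shuttle and supplies the backbone of glycerolipids. Its isozymes differ only at their carboxyl end: reading through the end of exon 6 gives GPDH-3, the main larval isozyme, splicing to exon 7 gives GPDH-2, and splicing to exon 8 gives GPDH-1, which is abundant in adult flight muscle.

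In the dm6 annotation Gpdh1 spans chr2L:5943643-5948968 on the plus strand, with 6 transcripts, 2 for each end. Exons are numbered here in their order along the gene. The read-through form has 350 codons, the form ending in exon 7 has 360 and the form ending in exon 8 has 353. The last coding bases of the 3 forms are shown because they are where the isoforms part. Capitals mark the bases beyond exon 6, up to the end of the stop codon. The lower case bases are shared, at chr2L:5947312-5947332, and the capitals of the spliced forms begin at chr2L:5947857-5947890 for exon 7 and chr2L:5948407-5948419 for exon 8.
read-through form: acgcaatcaccctgagcatatGTAA
exon 7 form: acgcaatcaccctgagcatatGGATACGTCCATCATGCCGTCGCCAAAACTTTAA
exon 8 form: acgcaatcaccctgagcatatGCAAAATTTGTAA
All 3 forms stop at a TAA codon. In the read-through form that codon lies within the first bases of intron 6, so the same bases serve as the 5′ splice site of the spliced forms.

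The splice sites that decide between these ends are shown next, all read from dm6 on the plus strand. Capitals mark the first 6 bases of intron 6 in the first sequence (chr2L:5947325-5947344) and the last 2 bases of the intron in the others (chr2L:5947837-5947866 and chr2L:5948387-5948416).
exon 6 end and start of intron 6: gagcatatGTAAGTgtttcg
end of intron 6 and start of exon 7: tttttatattatttttatAGggatacgtcc
end of the intron before exon 8: tttcttcttttatttcacAGgcaaaatttg

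**Figure D1:**
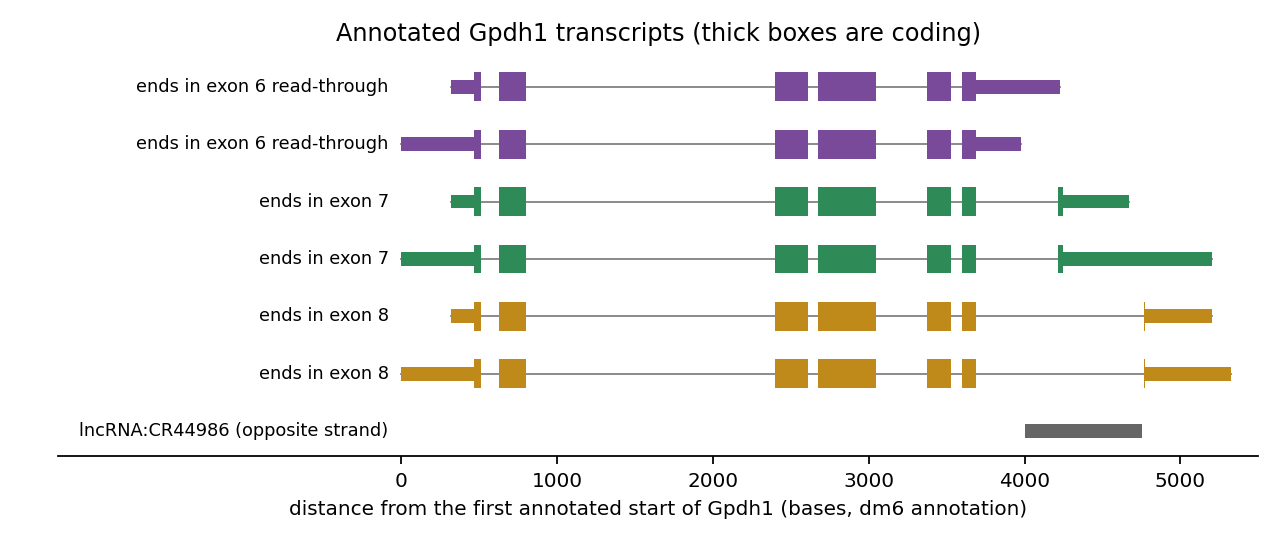
The 6 annotated Gpdh1 transcripts, drawn by distance in bases from the first annotated start, with thick boxes for coding and thin boxes for untranslated exon sequence. The forms share exons 1 to 6 in their coding part and differ in the last exon; the grey bar is a long noncoding RNA gene on the opposite strand.

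The files' coordinates are of the dm3 assembly. Of 7 introns in the dm6 annotation, 6 matched a deposited retained intron by length and relative position at a displacement of 0 bases, against 1 at the next best displacement. Intron 3 (65 bases) had no listed event. The gene lncRNA:CR44986 (chr2L:5947647-5948397 in dm6, minus strand) overlaps intron 6 and exon 7. The library kit named in the labels does not mark strand, so reads of the overlap cannot be assigned to one strand. The only opposite-strand splicing event wholly inside Gpdh1 had 0 and 0 spliced read pairs in mutants, against 2 and 1 in wild type. The part of unspliced antisense reads in the intron 6 values was not tested.

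Across the retained intron events, the libraries held 2355707 and 2306470 spliced read pairs in mutants, against 2315230 and 1733986 in wild type. Nothing in the labels says that replicates came from separate cultures. Smn itself had 1 exon bin and no usage test, so the labels were not checked against it. Of the larval marker genes, apolpp (fat body), Lcp1 (cuticle), alphaTry (gut) and elav (neurons) were all present in the mutant table, with largest bin means of 52219, 5955, 2841 and 142 normalized counts; the muscle gene Mhc was not matched by identifier and is not analysed here.

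Wild type replicate 2 stood apart in its Gpdh1 level. Summed over the 8 listed introns, spliced Gpdh1 read pairs numbered 6505 and 8760 in mutants, against 8776 and 519 in wild type. Scaled to counts per 1000000 spliced pairs of the library, these were 2761 and 3798 in mutants, against 3791 and 299 in wild type. The groups overlapped: mutant replicate 2 and wild type replicate 1 were nearly equal, mutant replicate 1 was somewhat lower, and wild type replicate 2 was 12.7-fold below the other wild type library. Only 0.643% of 9957 introns had a wild type ratio as large, and the median log2 ratio of the wild type libraries was 0.03. The wild type libraries also differed more widely over these introns, with a root mean square log2 ratio of 0.455 between the mutants and 1.14 between the wild type libraries. The means were 3280 ± 733 per 1000000 in mutants and 2045 ± 2469 in wild type (SD, n = 2 each), a log2 ratio of 0.68. Without wild type replicate 2 the log2 ratio was -0.21, and without wild type replicate 1 it was 3.45, so the direction depended on which wild type library was used. In whole larvae, fewer cells that express a gene and less RNA per cell cannot be told apart.

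**Figure D2:**
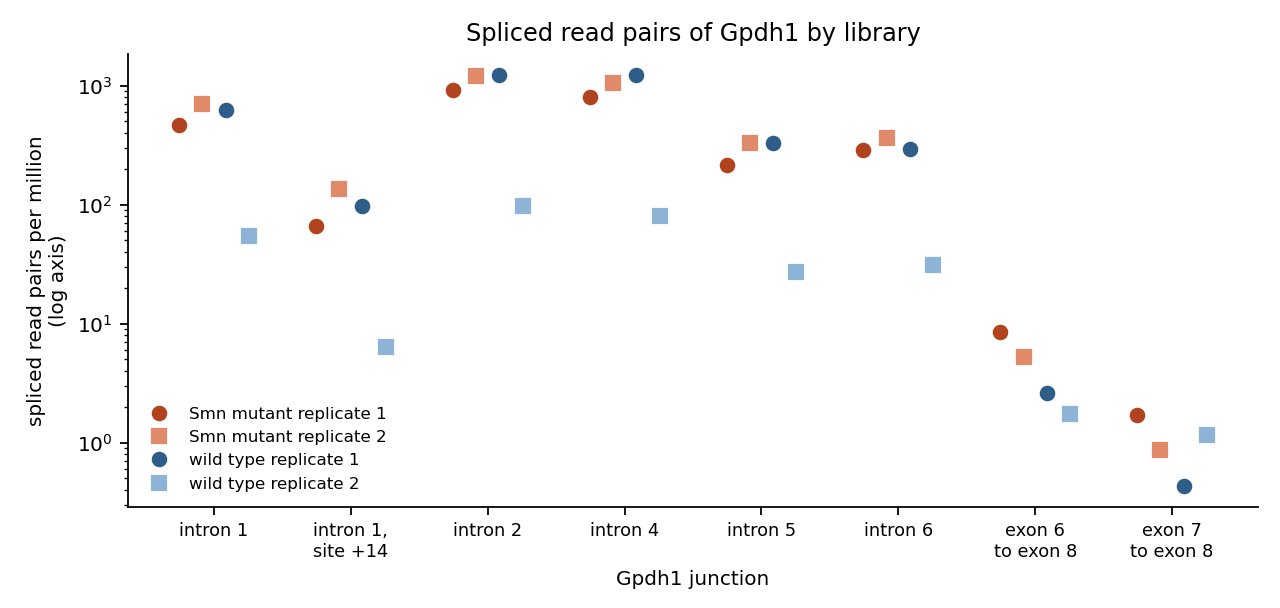
Spliced read pairs per 1000000 (log axis) at each listed Gpdh1 junction, 1 point per library, mutants left of wild type. Wild type replicate 2 lies far below the other libraries at every junction of the shared exons.

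The junctions of the shared exons all had wild type replicate 2 lowest and mutant replicate 1 next. Intron 2, the longest intron within the coding sequence, had 914 and 1215 spliced pairs per 1000000 in mutants, against 1234 and 97.5 in wild type. Intron 4 had 803 and 1048 per 1000000 in mutants, against 1216 and 80.2 in wild type. At both the groups overlapped.

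Intron 6, which separates the read-through form from the exon 7 form, was retained more in both mutant libraries than in either wild type library. It lies at chr2L:5947333-5947856 (dm3, 524 bases). Read pairs specific to the read-through form numbered 2831 and 3622 in mutants, against 1507 and 101 in wild type. Pairs that crossed the exon 6 to exon 7 junction numbered 672 and 833 in mutants, against 673 and 54 in wild type. Read-through pairs were 80.8% (95% Clopper-Pearson interval 79.5 to 82.1) and 81.3% (80.1 to 82.4) of specific pairs in mutants, against 69.1% (67.1 to 71.1) and 65.2% (57.1 to 72.6) in wild type. These intervals cover counting error only, since read pairs of amplified libraries are not independent molecules. The groups did not overlap, and the mutant libraries lay close together.

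The authors' posterior mean fraction of the retained form was 0.51 and 0.53 in mutants, against 0.29 and 0.26 in wild type. This fraction allows for the lengths of the isoforms of the event. Its means were 0.52 ± 0.014 in mutants and 0.275 ± 0.021 in wild type (SD, n = 2 each). The annotated read-through transcripts end at chr2L:5947617, within intron 6, and at chr2L:5947872, just past the intron's end at chr2L:5947856 (dm6). The event treats read-through as a retained intron and not as an alternative transcript end. The fraction is therefore not read here as the share of the read-through form. The authors' Bayes factor was at the cap of 1e+12 in all 4 pairings of a mutant with a wild type library. Of the 8 retained introns of Gpdh1, this 1 met a Bayes factor of at least 10 with a fraction higher by at least 0.2 in all 4 pairings, a rule met by 0.64% of all retained introns. The rule for a lower fraction was met by 0 of the 8, against 0.13% of all. Because that contrast chose the gene, nothing is read from the difference in these shares.

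As a log2 ratio of read-through to spliced pairs, intron 6 had 2.07 and 2.12 in mutants, against 1.16 and 0.90 in wild type. The difference of the means was 1.07, higher in mutants. It was 0.93 without wild type replicate 2 and 1.20 without wild type replicate 1. Retained introns as a whole were shifted the same way, with a median difference of 0.59 over 11481 introns. Intron 6 lay 0.47 above that median, and 66.2% of introns had a smaller difference.

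**Figure D3:**
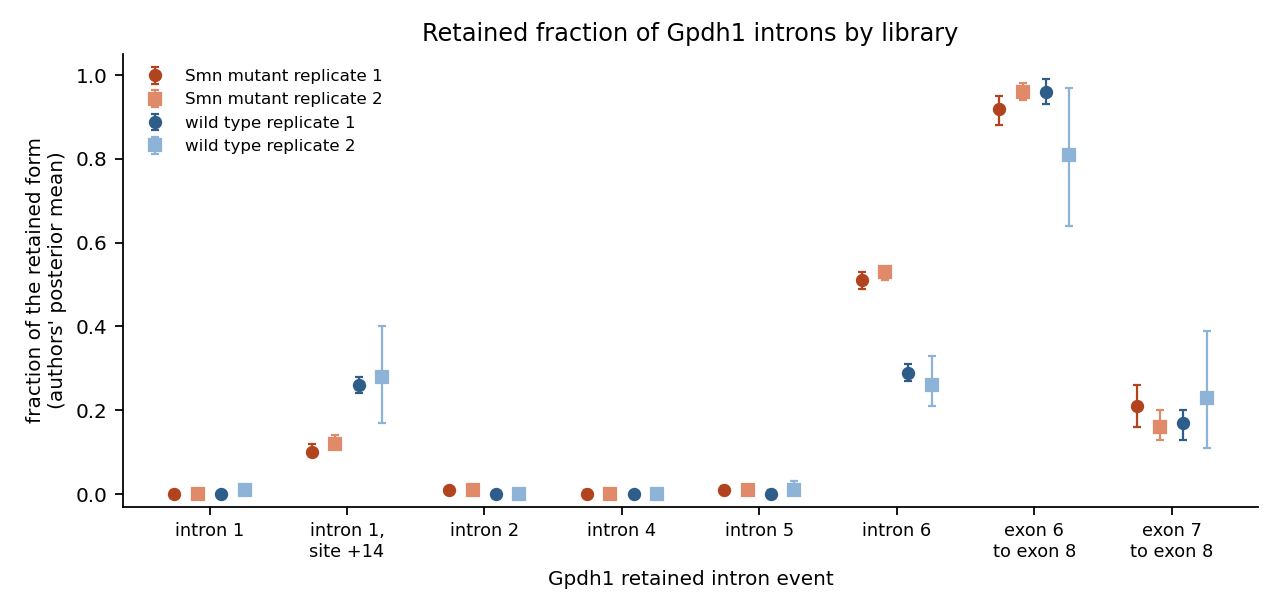
The authors' posterior mean fraction of the retained form at the 8 Gpdh1 retained intron events, 1 point per library with the authors' interval, mutants left of wild type. At intron 6 the mutants lie at 0.51 and 0.53 and wild type at 0.29 and 0.26, and the order is reversed at the site 14 bases downstream of intron 1.

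Scaling to other junctions of Gpdh1 removes the level of the gene from the comparison. Read-through pairs per exon 5 to exon 6 junction pair were 5.59 and 4.80 in mutants, against 1.98 and 2.15 in wild type. The means were 5.20 ± 0.56 in mutants and 2.07 ± 0.12 in wild type (SD, n = 2 each), 2.52-fold higher in mutants with no overlap. On the same scale, junction pairs from exon 6 to exon 7 were 1.33 and 1.10 in mutants, against 0.886 and 1.15 in wild type, and the groups overlapped. Thus read-through pairs separated the groups on this scale and exon 7 junction pairs did not. The overlap of exon 7 junction pairs came from wild type replicate 2, with 54 such pairs, while wild type replicate 1 lay below both mutants. This scaling does not remove the general shift of retained introns given above. Scaled instead to the exon 4 to exon 5 junction, read-through pairs were 1.496 and 1.498 in mutants, against 0.535 and 0.727 in wild type, and junction pairs to exon 7 were 0.355 and 0.345 in mutants, against 0.239 and 0.388 in wild type.

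The exon 8 form, the adult muscle isozyme, was rare in every library. Its junction from exon 6 (chr2L:5947333-5948406, dm3, 1074 bases) was crossed by 20 and 12 read pairs in mutants, against 6 and 3 in wild type. As a share of all pairs leaving exon 6 by a listed junction, this was 2.89% (95% Clopper-Pearson interval 1.77 to 4.43) and 1.42% (0.736 to 2.47) in mutants, against 0.884% (0.325 to 1.91) and 5.26% (1.10 to 14.6) in wild type. Wild type replicate 2 had the highest share and wild type replicate 1 the lowest, so the shares overlapped. As counts per 1000000 spliced pairs of the library they were 8.49 and 5.20 in mutants, against 2.59 and 1.73 in wild type, without overlap. The junction from exon 7 to exon 8 (chr2L:5948264-5948406, dm3), which is not in the dm6 annotation, had 4 and 2 pairs in mutants, against 1 and 2 in wild type. At these counts no difference in the use of exon 8 within the gene was detectable.

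By the authors' fraction, introns 1, 2, 4 and 5 were at most 0.01 retained in every library. Intron 2 (chr2L:5944446-5946043, dm3, 1598 bases) had 281 retained against 2152 spliced pairs and 347 against 2802 in mutants, and 172 against 2858 and 11 against 169 in wild type. Its retained share was 11.5% and 11.0% in mutants, against 5.68% and 6.11% in wild type. Intron 2 thus had a log2 ratio 0.99 higher in mutants, without overlap. Unlike the authors' fraction, these shares and ratios do not allow for the length of the intron. The authors' Bayes factor was 0 in every pairing at introns 1, 2, 4 and 5.

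Shorter introns gave fewer retained pairs. Intron 4 (chr2L:5946689-5947017, dm3, 329 bases) had 22 and 28 retained pairs in mutants, against 15 and 0 in wild type, with a log2 ratio 1.41 higher in mutants. Intron 5 (chr2L:5947172-5947239, dm3, 68 bases) had 14 and 18 retained pairs in mutants, against 5 and 0 in wild type, with a log2 ratio 1.60 higher. Intron 1 (chr2L:5944154-5944267, dm3, 114 bases) had 12 and 7 retained pairs in mutants, against 3 and 0 in wild type. By the log2 ratio, introns 4 and 5 did not overlap between the groups, while intron 1 did. That overlap at intron 1 comes from the 0.5 pairs added to the 0 retained and 94 spliced pairs of wild type replicate 2, since the plain retained shares were 1.08% and 0.429% in mutants, against 0.208% and 0% (upper bound 3.85%) in wild type. At introns 4 and 5 the 0 retained pairs of wild type replicate 2 stand against 139 and 47 spliced pairs, which allow retained shares of up to 2.62% and 7.55% (95% Clopper-Pearson upper bounds). The mutant shares were 1.15% and 1.14% at intron 4 and 2.69% and 2.33% at intron 5, so against that library no difference was detectable at this depth.

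Of the 7 Gpdh1 retained introns with at least 20 specific pairs in every library, 4 were higher in both mutants than in both wild type libraries and 1 was lower. The lower 1 is the alternative end of intron 1 described next, an event that measures little retention. Over all such introns, 42.8% were higher without overlap and 11.9% were lower. The Gpdh1 count lies near that background and is not a result about the gene.

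**Figure D4:**
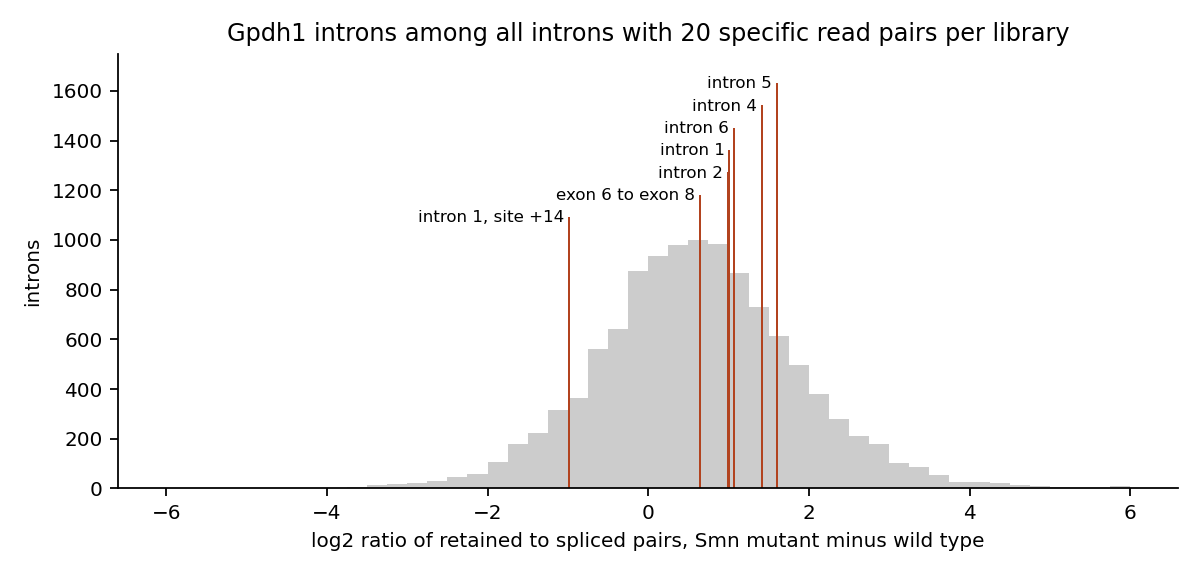
Difference of the log2 ratio of retained to spliced pairs, mutant minus wild type, over 11481 introns (grey bars, in steps of 0.25), with lines at the 7 Gpdh1 introns. The median of all introns is 0.59, and 6 of the Gpdh1 lines lie above it.

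The event at an alternative acceptor of intron 1 had a lower ratio in mutants, while the junction share of that acceptor overlapped between the groups. The acceptor lies 14 bases into exon 2 and is not in the dm6 annotation. The sequence around both acceptors (chr2L:5944256-5944285, dm6, plus strand) is given to show how close they are, with the AG before each site in capitals.
end of intron 1 and start of exon 2: gcgcccttgcAGgggttcggccatAGcgaa
In the event that uses the downstream site, pairs specific to the longer form numbered 158 and 247 in mutants, against 401 and 20 in wild type. Pairs spliced to the downstream site came to 66.2 and 135 counts per 1000000 in mutants, against 97.6 and 6.34 in wild type. The authors' fraction of the longer form was 0.10 and 0.12 in mutants, against 0.26 and 0.28 in wild type, and its log2 ratio was 0.99 lower in mutants without overlap. The Bayes factor reached 10 in 3 of 4 pairings, with a lowest value of 6.18. Pairs on the 14 bases of exon 2 count for the longer form, so the event does not measure retention alone. Intron 1 itself had 12 and 7 retained pairs in mutants, against 3 and 0 in wild type. Most pairs of the longer form therefore lay on those 14 bases, and the event measures little retention. Of the pairs leaving exon 1 by either junction, 12.4% and 16.1% used the downstream site in mutants, against 13.6% and 10.5% in wild type, and the groups overlapped.

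Events at alternative 5′ splice sites within intron 2 had low fractions of the extended form. Their specific pairs include any on the stretch past the annotated donor, so use of the alternative donors themselves was not measured. The event at a donor 417 bases downstream had 30 and 51 specific pairs in mutants, against 37 and 1 in wild type. The event at a donor 1440 bases downstream had 200 and 223 in mutants, against 137 and 9 in wild type. Its log2 ratio to the annotated donor was 0.73 higher in mutants. Both were higher in the mutants without overlap, as were 35.8% of 1579 such events in the series. Of the 3 events 0 were lower, against 14.9% of all. Shares of the extended form at 417 bases were 1.37% and 1.79% in mutants, against 1.28% and 0.588% in wild type. At 1440 bases they were 8.50% and 7.37%, against 4.57% and 5.06%. The Clopper-Pearson intervals of wild type replicate 2, 0.0149 to 3.23% and 2.34 to 9.38%, covered both mutant shares. Against that library no difference was detectable. Wild type replicate 1 had 0.901 to 1.76% and 3.85 to 5.38%, and only the second lay below both mutant shares. The authors' fraction for both events was at most 0.01 in every library. The pairs specific to the extended forms lie within intron 2, so they are shared with its retained intron event. The third event of this type sets the exon 7 donor against the exon 6 donor before exon 8, and its groups overlapped. By the Bayes factor rule, 0 of the 3 events were higher and 0 lower, against 0.288% and 0.128% of all such events.

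The exon usage tables give the same gene in 9 bins without coordinates. Flattening the dm6 annotation gives 14 bins, so bins were not assigned to exons. Bins of this kind are numbered along the gene, which places bins 7 to 9 towards the 3′ end. For mutants over wild type, the authors' deposited table called 3 of 9 bins at an adjusted p under 0.05, against 2.99% of all bins tested. Of these, 2 were higher, against 1.52% of all bins, and 1 was lower, against 1.47%. In the authors' deposited table bin 7 had a log2 fold of 0.37 (adjusted p listed as 0, mean 1340 normalized counts) and bin 6 had 0.12 (adjusted p = 0.00551). Bin 4 was lower in mutants in that deposited table of the authors, with a log2 fold of -0.22 (adjusted p = 1.39e-13). The bin just inside the threshold was bin 6, and the bin just outside was bin 3 with a log2 fold of -0.08 (adjusted p = 0.0810) in the authors' deposited table. Bin 9, nearest the 3′ end, had the highest log2 fold, 0.49, at a mean of 83.5 normalized counts and an adjusted p of 0.871 by DEXSeq in the authors' deposited table.

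The stage comparisons use other libraries than those that chose the gene, and share the puff stage libraries with each other. In the authors' deposited table of puff stage against second instar, 0 of 9 bins had an adjusted p under 0.05 by DEXSeq. By that rule 1.03% of all bins were called (0.548% higher, 0.485% lower). In the authors' deposited table of puff stage against 12 h, 0 of 9 were called, where 0.638% of all bins were (0.355% higher, 0.283% lower). In each comparison 3 Gpdh1 bins had an unadjusted p under 0.05 by DEXSeq. The share of all bins at that unadjusted threshold was not computed, so nothing is read from these counts. Bin 7 had log2 folds of -0.20 (adjusted p = 0.683) and -0.18 (adjusted p = 0.871) in these deposited tables of the authors. Bin 8 had log2 folds of 0.53 (adjusted p = 0.0632) and 0.43 (adjusted p = 0.168) in the same deposited tables of the authors. Neither bin passed the threshold in either stage table. The sign differed from that of the mutant table at 4 of 9 bins for second instar and at 3 of 9 for 12 h.

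**Figure D5:**
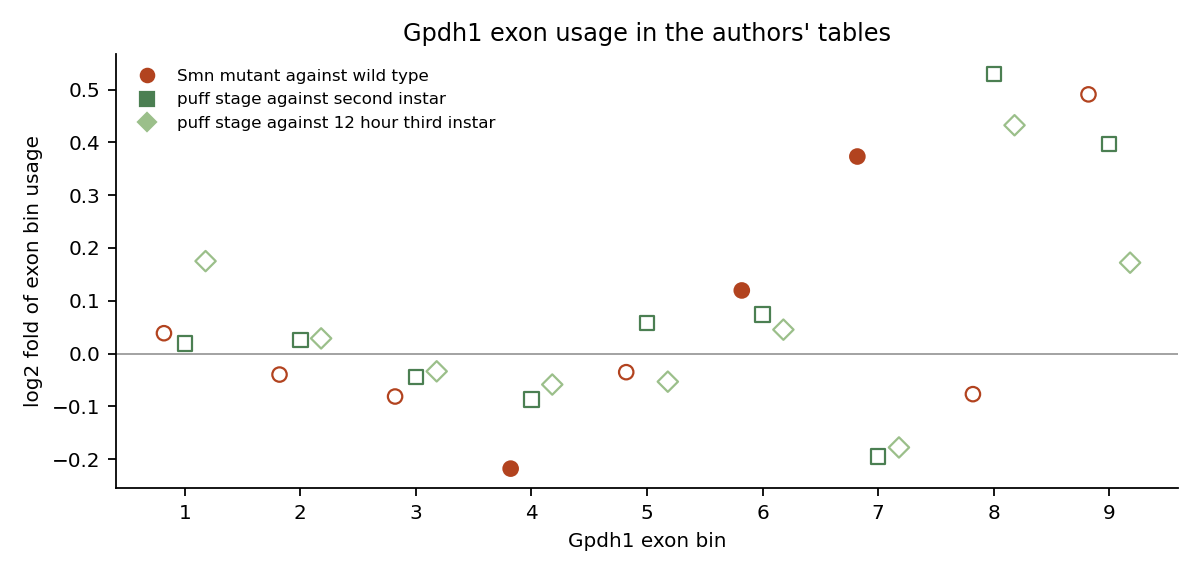
Log2 fold of exon bin usage at the 9 Gpdh1 bins in the authors' 3 tables, with filled points for an adjusted p under 0.05. Bin 7 is 0.37 in mutants against wild type and -0.20 and -0.18 at puff stage against the earlier stages; only bins 4, 6 and 7 of the mutant table are filled.

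The bins of 5 other genes had log2 folds closest to those of Gpdh1 bin 7 over the 3 tables, among the 1410 bins of single genes that were called in the mutant table and had a log2 fold in every table. In order they were in Hibch (distance 0.0790), bif (0.0791), Rdh1 (0.0877), clu (0.0904) and CLIP-190 (0.0916), where the distance is Euclidean over 3 log2 folds.

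Of the genes around Gpdh1 in metabolism, 24 were listed: the shuttle partners, users of glycerol 3-phosphate and neighbouring steps. The neighbouring steps were those of glycolysis with Ldh, and also Mdh1, Mdh2, Got1, Got2 and Men, which lie outside glycolysis. Of the 24 genes, 19 were tested in the mutant table, and 9 of the 19 had at least 1 called bin, against 9.8% of all genes tested. The other 5 were not matched by identifier and are not analysed here, and Gpo2 was tested only in a merged group of genes. Of 120 bins of these genes, 10 were higher and 8 lower in mutants, against 1.52% and 1.47% of all bins tested. The 9 genes with a called bin had largest bin means from 563 (Gpat4) to 12815 (Gapdh2) normalized counts. The median over all bins with signal was 25.5. Small folds are called more readily at high counts, and no share of equally abundant genes was computed. In the authors' deposited table Tpi, the triosephosphate isomerase that makes the substrate of Gpdh1, had a log2 fold of 0.83 at bin 3, with an adjusted p printed as 0. Its bins 1 and 2 were called lower, with log2 folds of -0.09 and -0.11 in the same deposited table of the authors. Gapdh2, a glyceraldehyde-3-phosphate dehydrogenase, had 2.44 at bin 2 (adjusted p = 2.24e-12), a bin with a mean of 26.3 normalized counts in the authors' deposited table. Gk1, a glycerol kinase, had -0.37 at bin 1 (adjusted p = 0.00932) in the authors' deposited table. The other genes with a called bin were Gpat4, Ald1, Ldh, Pgk, Eno and Men. Their called bins had log2 folds from -0.20 to 0.24 in the authors' deposited table, apart from Men bin 4 at 0.93. Gpo1, the mitochondrial partner of the shuttle, had 0 called of 12 bins.

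At puff stage against second instar, 4 of 18 genes had a called bin, where 3.13% of all genes did, and against 12 h 2 of 18 did, where 1.94% of all genes did. Here too no share of equally abundant genes was computed. Of their bins, 4 of 97 rose and 1 fell against second instar, where 0.548% and 0.485% of all bins did, and 2 of 96 rose and 1 fell against 12 h, where 0.355% and 0.283% did. Tpi bin 3 rose at puff stage in both, with log2 folds of 0.68 (adjusted p = 1.67e-06) and 0.54 (adjusted p = 2.93e-05) by DEXSeq in the authors' deposited tables. Gpo1 rose at 1 bin, bin 10, by 1.87 against second instar (adjusted p = 0.00686), at a mean of 4.01 normalized counts in the authors' deposited table. Ald1, the aldolase upstream of Tpi, rose at bin 11 in both, by 0.22 (adjusted p = 4.50e-04) and 0.17 (adjusted p = 0.0465) in the authors' deposited tables. Its bin 3 fell in both, with log2 folds of -0.19 (adjusted p = 0.0102) and -0.24 (adjusted p = 1.28e-04) by DEXSeq in the authors' deposited tables.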

How the data were processed

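Values are the authors' deposited files for 2 Smn mutant and 2 wild type libraries, grouped by sample title, and for published stage libraries. Per the deposited readme, reads were aligned with TopHat 2.0.8 and Bowtie2 2.1.0 to dm3, MISO 0.4.8 was run on each pairing of libraries, and exon usage came from DEXSeq (1.0.2 or a later release) on reads handled with Samtools 0.1.19. Per the file headers, the event files give a fraction (posterior mean in steps of 0.01 with its interval), a Bayes factor, which is a ratio of evidence, and a count of read pairs per isoform class. Per the file headers, each exon bin has a log2 fold, a raw and an adjusted p-value, and the signal as the authors' mean normalized count. They hold no value per library, so these tests were not refitted.

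Isoform-specific read pairs were turned into log2((first + 0.5)/(second + 0.5)) in Python 3.11.15, and events entering the background had 20 or more such pairs in each library. Exact Clopper-Pearson intervals came from SciPy 1.17.1. Spliced pairs were scaled to the library total over retained intron events. The calculation was tested on simulated data at the pair totals of these libraries. The simulated spread between libraries was set in advance and not taken from these data. Library values repeated between pairings were identical. Sequences and exon numbers came from the dm6 reference; no coordinates were converted. The gene, its members, the metabolic list and the within-gene ratios were chosen with earlier results of these data known. The 5 most similar genes were those with a called bin nearest to the Gpdh1 bin of lowest p over the 3 log2 folds. Alternatives were other thresholds, pseudocounts, scalings and minimum counts, and leaving out each library.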

Additional observations from a re-analysis of the deposited data

How the results depend on the processing

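Of 33 alternative values over 8 results, 30 stayed within the limits set for a change and 0 reversed a called value. The 30 include the Gpdh1 level without wild type replicate 2, although its log2 ratio went from 0.682 to -0.209. With an adjusted p under 0.1, 1 Gpdh1 bin was called at puff stage against second instar, against 0 at 0.05. The log2 odds of the authors' fraction at intron 6 differed by 1.5 between mutants and wild type, against 1.07 from read pairs. Leaving out each library in turn gave 0.934 to 1.2 for intron 6, 0.619 to 0.843 for the intron 2 donor 1440 bases downstream, and -0.209 to 3.45 for the Gpdh1 level, which changed sign. No paired analysis was possible because the exon tables hold no values per library, and on the event values of the contrast that chose the gene no test was made, with or without a replicate block. With 519 spliced pairs, wild type replicate 2 limits every per-library statement on Gpdh1. Exon bins have no coordinates and no values per library.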

Other observations

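Relative to bin 4, the other Gpdh1 bins had lower means in the stage comparisons than in the mutant comparison, from the authors' deposited tables. As a percent of the mean of bin 4, bin 5 was at 72.4 for the mutant and wild type libraries, at 33.8 for puff stage with second instar and at 39.4 for puff stage with 12 h, from the authors' deposited tables. In the same order and from the same deposited tables of the authors, bin 6 was at 62.3, 33.6 and 36.0, bin 7 at 45.2, 19.4 and 19.8, and bin 8 at 31.6, 8.88 and 9.79. Bin 1 was at 45.0, 33.0 and 29.8, bin 2 at 74.8, 63.1 and 65.6, and bin 3 at 90.0, 81.0 and 83.1. Bin 4 was itself called lower in mutants. The stage libraries were published ones, so library source and larval stage cannot be told apart. Each table was normalized on its own, and both stage comparisons include the same puff stage libraries, on which the likeness of their values rests in part. These levels were not compared by a test.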
